A study of Arabidopsis thaliana with 12 samples.

Results

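AT5G19510, described in the selection as the gene of the beta subunit of elongation factor 1B (eEF1B beta), and EIF4A-2 (locus AT1G54270), a gene of the initiation factor eIF4A, were followed across light, darkness and reillumination in Arabidopsis seedlings. They were taken as the probe sets tied to 1 of these genes alone, which gave 2 genes with 1 probe set each, of 13286 genes that had a probe set of their own among 22746 tested. The pair was chosen from earlier results of these same arrays. For AT5G19510 the choosing value was its low reading in ribosome-captured RNA after darkness, compared with light. The value that chose EIF4A-2 is not recorded in the sources used here, so all its differences are given as a description with no test. For AT5G19510 the same holds for every difference that involves dark or light captured RNA. The platform annotation and the reference gene table give AT5G19510 as a locus number only, and the reference table gives the name elongation factor 1B beta to another locus, AT1G30230, which has no probe set of its own here. AT5G19510 lies on chromosome 5 and EIF4A-2 on chromosome 1 (assembly TAIR10.1).

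During translation, initiation factors bring the small ribosomal subunit to the mRNA cap and the start codon, and elongation factors then deliver aminoacyl-tRNAs and move the ribosome along. The eIF4A protein is a DEAD-box RNA helicase that unwinds structure in the 5′ leader as part of the cap-binding machinery. The eEF1B complex recharges eEF1A, the carrier of aminoacyl-tRNA, by exchanging its GDP for GTP. Many mRNAs of the translation machinery are known for changes in ribosome loading when a plant's light or energy supply changes.

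All samples were whole seedlings, 14 days old, of a Col-0 line with the genotype 35S:HF-RPL18B, in which the near-constitutive viral 35S promoter drives a His6-FLAG-tagged copy of ribosomal protein L18B, so the line that served as control carried the transgene too. Seedlings grew on medium with 1% sucrose at 23 °C under 16 h of light and 8 h of darkness, and treatment began halfway through the light period. The conditions were reillumination for 10 min after 1 h of darkness, 1 h of darkness, and 1 h of light as the control. From each, RNA of anti-FLAG-captured ribosomes (labelled IP or polysomal, called captured RNA here) and RNA of the clarified extract before capture (total RNA) were hybridised to Affymetrix arrays in 2 biological replicate experiments, which makes 6 groups of 2 arrays and 12 arrays. Captured RNA holds the mRNAs that tagged ribosomes carried, so a lower value in it at an equal value in total RNA means a smaller share on tagged ribosomes, relative to the other mRNAs on the array.

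Values are log2 expression from RMA, which sets each array on a common scale, so that a change of all mRNAs together would not be seen. Array medians lay between 6.05 and 6.19, and replicate arrays correlated at 0.9925 to 0.9948 across probe sets. Of 12 leaf and 9 root marker genes only 1 leaf marker had a probe set of its own. RCA, for Rubisco activase of photosynthetic tissue, read at group means of 12.98 to 13.69, and the root part of the seedlings was not checked. In whole seedlings, fewer cells of a type and less RNA per cell cannot be told apart.

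AT5G19510 was at its lowest on ribosomes after darkness while its total mRNA was nearly level. In captured RNA it read 11.31 and 11.40 after reillumination, 10.79 and 10.69 in darkness, and 11.53 and 11.41 in light. In total RNA it read 11.76 and 11.65 after reillumination, 11.79 and 11.78 in darkness, and 11.79 and 11.83 in light. The 2 dark captured arrays lay below the other 10, with a gap of 0.52 to the reilluminated captured arrays. All 12 readings were far above the upper quartiles of the arrays (7.87 to 7.92), so the probe set was not near background on any array.

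The group means of AT5G19510 ran from 11.81 ± 0.02 in light total RNA (SD, n = 2), through 11.79 ± 0.01 in dark total, 11.70 ± 0.08 in reilluminated total, 11.47 ± 0.08 in light captured and 11.36 ± 0.07 in reilluminated captured RNA, to 10.74 ± 0.07 in dark captured RNA. Neighbours in this order overlapped or were within 0.02 of each other between light and dark total, between dark and reilluminated total, and between light and reilluminated captured RNA. Total and captured RNA were separated by a gap of 0.12, and dark captured RNA stood apart from all other groups.

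EIF4A-2 had another course, with its highest readings in the total RNA of light and no low group in dark captured RNA. In captured RNA it read 9.57 and 9.50 after reillumination, 9.68 and 9.74 in darkness, and 9.75 and 9.88 in light. In total RNA it read 9.85 and 9.79 after reillumination, 9.85 and 9.56 in darkness, and 10.05 and 10.22 in light. The 2 light total arrays were above all the others. The dark total arrays lay 0.20 (SD, n = 2) around their mean of 9.70, the widest spread of the 6 groups for this gene.

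Group means of EIF4A-2 ran from 10.14 ± 0.12 in light total RNA, through 9.82 ± 0.04 in reilluminated total, 9.81 ± 0.09 in light captured, 9.71 ± 0.04 in dark captured and 9.70 ± 0.20 in dark total, to 9.54 ± 0.04 in reilluminated captured RNA (SD, n = 2 each). Only the step below light total RNA, with a gap of 0.20, was wider than the ranges of the neighbouring groups. The remaining neighbours overlapped or were within 0.01 of each other.

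**Figure D1:**
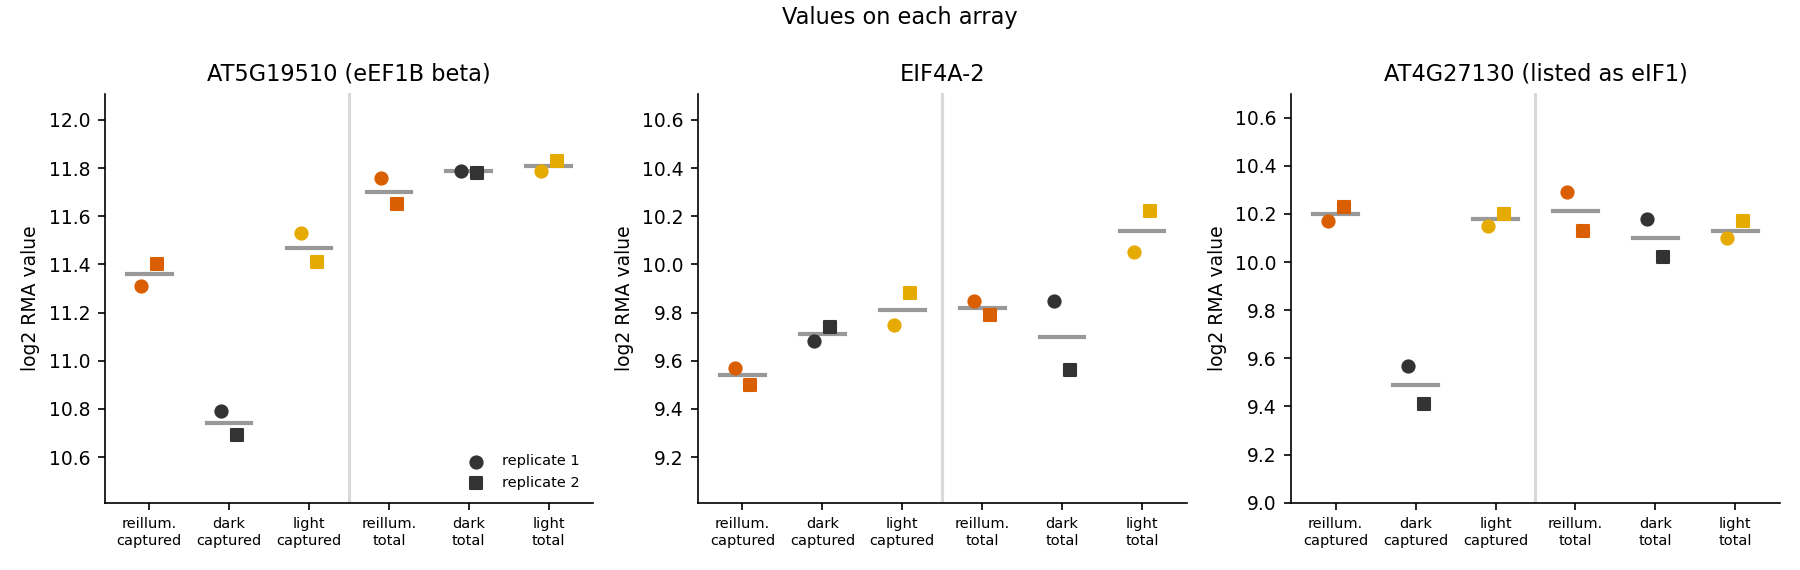
Log2 RMA value (vertical axis) on each of the 12 arrays for AT5G19510, EIF4A-2 and, as a listed factor also lowest in dark captured RNA, AT4G27130. Circles are replicate 1, squares replicate 2, and grey lines are group means; AT5G19510 and AT4G27130 are lowest in dark captured RNA (means 10.74 and 9.49), and EIF4A-2 is highest in light total RNA (mean 10.14).

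The total RNA comparisons ask whether light changed the amount of each mRNA. For AT5G19510, which was not chosen on total RNA, darkness over light was log2 -0.02 ± 0.10 (standard error of the limma fit; adjusted p = 0.947), with a 95% interval of -0.25 to 0.20. The dark minus light difference was 0.00 in replicate 1 and -0.05 in replicate 2. Reillumination over darkness was -0.08 ± 0.10 (interval -0.31 to 0.14, adjusted p = 0.998 in limma), and reillumination over light -0.11 ± 0.10 (interval -0.33 to 0.12, adjusted p = 0.683 in limma). Changes of total mRNA larger than those bounds are thus outside the intervals, and smaller ones could not be detected with 2 arrays a group. Over all probe sets, 9.46% were called for darkness over light, 7.91% for reillumination over light, and 0.0% (0 of 22746 in limma, with 980 at an unadjusted p under 0.05) for reillumination over darkness. With the replicate as a block 12 probe sets were called in the last.

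For EIF4A-2 the total mRNA was lower by 0.44 ± 0.12 on the log2 scale in darkness than in light, which is 0.739 of the light value. The size differed between the replicates, at -0.21 in replicate 1 and -0.66 in replicate 2. Without the dark total array of replicate 1 the difference was -0.58, and without that of replicate 2 it was -0.29, so 1 array moves the value by more than 1.5 times while its sign stays. Reillumination over darkness was 0.12 ± 0.12, and reillumination over light -0.32 ± 0.12 (-0.20 and -0.44 by replicate). The reilluminated total arrays did not overlap the light ones. After 10 min of light the total mRNA of EIF4A-2 was thus still below the light control on both arrays.

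The captured RNA comparisons ask what ribosomes carried. AT5G19510 in dark captured RNA was at 0.6 of its light level, log2 -0.74 ± 0.10, with -0.75 and -0.73 in the replicates. This value chose the gene and carries no test. Of all probe sets 17.2% were called in this comparison, and 644 of 22746 had a lower difference than AT5G19510. After 10 min of reillumination its captured mRNA was 1.54 times that of darkness, log2 0.62 ± 0.10 (0.53 and 0.72 by replicate). In that comparison 7.83% of probe sets were called, and 639 had a higher difference. Reilluminated over light captured RNA stood at -0.12 ± 0.10 (-0.22 and -0.01), where 8.88% of probe sets were called. The 2 steps share the dark arrays, so a low reading on those arrays appears in both.

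EIF4A-2 in captured RNA stood at -0.10 ± 0.12 for darkness over light (-0.06 and -0.14 by replicate), -0.17 ± 0.12 for reillumination over darkness and -0.28 ± 0.12 for reillumination over light (-0.18 and -0.37). The sign was negative in both replicates of all 3 comparisons. The reilluminated arrays, 9.57 and 9.50, were below all dark and light captured arrays.

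The difference of captured minus total RNA, taken within each replicate, shows the share of an mRNA on tagged ribosomes relative to other mRNAs. For AT5G19510 it was -0.45 and -0.25 after reillumination, -1.01 and -1.09 in darkness, and -0.26 and -0.41 in light. The dark values did not overlap the others, and the reilluminated and light values overlapped. The ratio was negative in all 3 conditions, where the median over all probe sets was 0.02 or 0.03. In darkness captured RNA held 0.483 of the total RNA level on this relative scale, and 406 of 22746 probe sets had a lower ratio. The dark ratio uses the dark captured arrays that chose the gene, so its low place is partly built in. Of all probe sets 23.5% were called for the ratio in darkness. In light the ratio was -0.34 ± 0.10.

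After reillumination, the condition whose arrays had no part in the light and dark values that chose AT5G19510, captured over total RNA was -0.35 ± 0.10 (0.787-fold, interval -0.57 to -0.12, adjusted p = 0.026 in limma). AT5G19510 was lower in captured RNA in both replicates. Of all probe sets 27.4% were called in this comparison, so a call is common. The adjusted p ranged from 0.0122 to 0.161 over 18 alternatives and was under 0.05 in 12 of them. The call was lost with arrays centred on their medians (-0.24, adjusted p = 0.118 in limma), with only these 2 groups in the fit (adjusted p = 0.0742), and without any 1 of the 4 arrays involved: reilluminated total replicate 1 (-0.29, adjusted p = 0.161) or 2 (-0.40, 0.0547), and reilluminated captured replicate 1 (-0.30, 0.129) or 2 (-0.39, 0.0576).

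EIF4A-2 had captured minus total values of -0.28 and -0.28 after reillumination, -0.16 and 0.17 in darkness, and -0.31 and -0.35 in light. Both reilluminated and both light values were below 0, and the dark values lay on either side of it. In reillumination the fitted ratio was -0.28 ± 0.12, given as a description with no test. In darkness the ratio was 0.01 ± 0.12, at 0.15 without the dark total array of replicate 1 and -0.14 without that of replicate 2, so its sign rests on 1 array. In light it was -0.33 ± 0.12. Over all probe sets 27.4% were called for this ratio in reillumination, 23.5% in darkness and 32.3% in light.

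**Figure D2:**
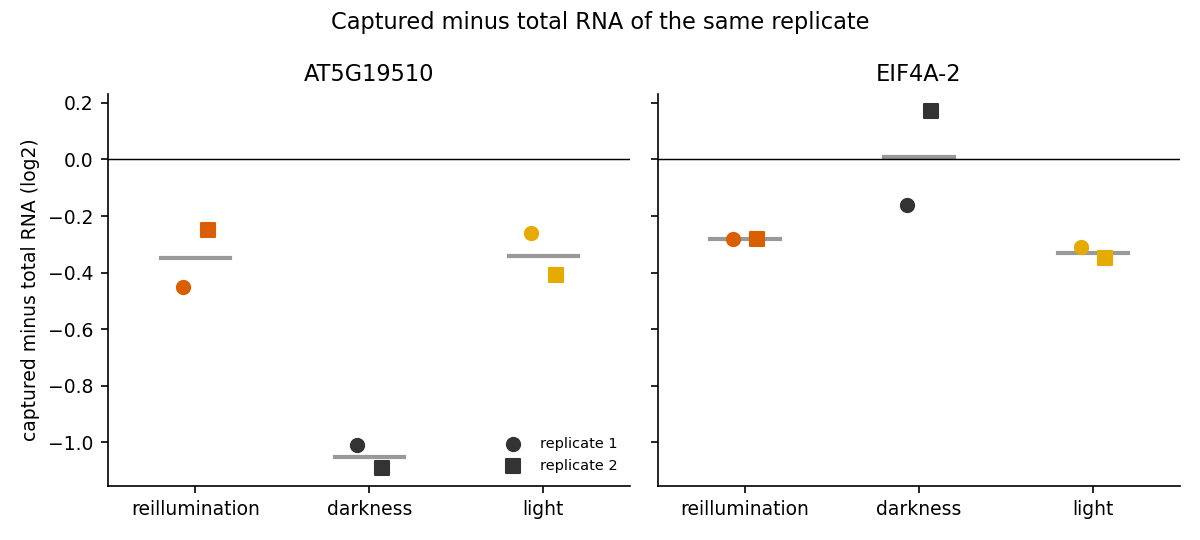
Captured minus total RNA (log2, vertical axis) of the same replicate for AT5G19510 and EIF4A-2 after reillumination, in darkness and in light. Circles are replicate 1, squares replicate 2, and grey lines are means; for AT5G19510 darkness stands apart at -1.01 and -1.09, and for EIF4A-2 the dark values of -0.16 and 0.17 lie above those of the other conditions.

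The shift of this ratio between conditions had opposite signs in the 2 genes, with the EIF4A-2 intervals (-0.04 to 0.71 and -0.66 to 0.08) reaching past 0. Darkness over light was -0.71 ± 0.14 for AT5G19510 and 0.33 ± 0.17 for EIF4A-2, and reillumination over darkness was 0.70 ± 0.14 and -0.29 ± 0.17. For AT5G19510 the shift came with captured differences of -0.74 and 0.62 and total differences of -0.02 and -0.08. For EIF4A-2 the shift into darkness came with a captured difference of -0.10 and a total difference of -0.44, both negative and the second the larger in size. Over all probe sets 1.09% were called for the shift from light to darkness and 0.994% for that from darkness to reillumination. Neither gene is given a test here: the dark captured arrays that chose AT5G19510 enter both shifts, and the value that chose EIF4A-2 is unknown.

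A comparison of the 2 genes on the same array removes what all mRNAs of that array share. The log2 distance from EIF4A-2 up to AT5G19510 was 1.74 and 1.90 in reilluminated, 1.10 and 0.95 in dark, and 1.79 and 1.53 in light captured RNA. In total RNA it was 1.91 and 1.86 after reillumination, 1.95 and 2.22 in darkness, and 1.74 and 1.60 in light. The distance itself joins 2 probe sets and has no meaning as a level, but its movement shows unequal change: in darkness it was smallest in captured RNA and largest in total RNA, with no overlap with light in either pool.

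**Figure D3:**
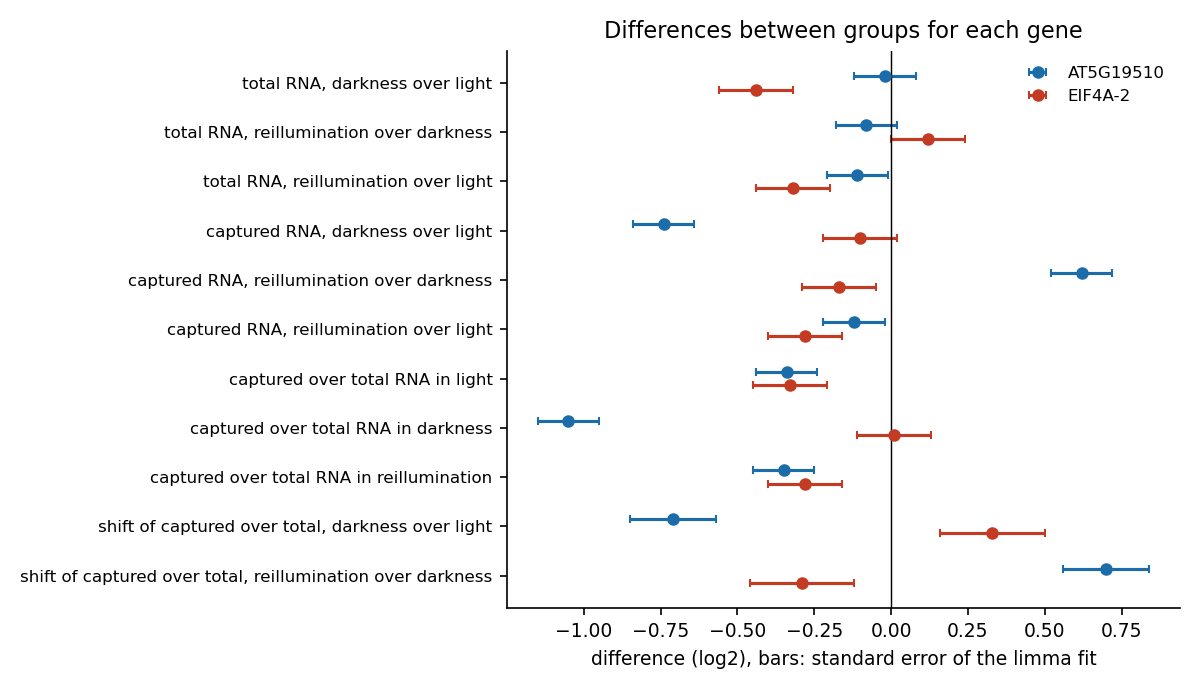
Difference between groups (log2, horizontal axis) for AT5G19510 and EIF4A-2 in 11 comparisons, with bars of 1 standard error of the limma fit. AT5G19510 is far from 0 where dark captured RNA enters (-0.74, 0.62, -1.05, -0.71 and 0.70), and EIF4A-2 is farthest from 0 for darkness over light in total RNA (-0.44). The listed AT5G19510 differences share the dark captured arrays that chose the gene, so their distance from 0 is partly built in.

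As signs of RNA quality, the 3′ minus 5′ signal of the GAPDH control was 1.25 in reilluminated, 0.96 in dark and 1.13 in light captured RNA, and 1.01, 1.11 and 0.91 in the corresponding total groups. For ubiquitin it was 1.39, 1.32 and 1.47 in captured and 1.57, 1.58 and 1.56 in total RNA. For actin it was 3.69, 3.90 and 3.75 in captured and 3.95, 4.06 and 4.45 in total RNA. Among the captured groups, darkness, where AT5G19510 was lowest, thus had the lowest GAPDH and ubiquitin and the highest actin value. The dark and light captured arrays overlapped for GAPDH and not for ubiquitin or actin. RCA, the leaf marker, averaged 13.14 ± 0.11 in reilluminated, 12.98 ± 0.04 in dark and 13.37 ± 0.15 in light captured RNA, and 13.53 ± 0.18, 13.49 ± 0.18 and 13.69 ± 0.07 in the corresponding total groups (SD, n = 2 each). It too was lowest in dark captured RNA. The parts of RNA quality and of this marker in the results were not tested.

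Each gene has a close relative that was measured. AT5G12110, put beside AT5G19510 under eEF1B beta in the factor list described further on, read 7.50 and 7.37 in reilluminated, 7.66 and 7.34 in dark, and 7.87 and 7.58 in light captured RNA. In total RNA it read 6.83 and 7.21, 6.90 and 7.32, and 7.19 and 7.36 in the same order of conditions. The dark and light arrays overlapped in both pools. Its captured difference for darkness over light was -0.22 ± 0.18 (adjusted p = 0.488 in limma) and for reillumination over darkness -0.07 ± 0.18 (adjusted p = 0.895). Captured RNA read above total RNA on all 3 pairs of group means, by 0.41, 0.39 and 0.45 in reillumination, darkness and light, where AT5G19510 read below, but none of these ratios passed in limma (adjusted p = 0.119, 0.157 and 0.081). With the replicate as a block the ratio in light did (adjusted p = 0.0449 in limma), beside 40.3% of all probe sets called.

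AT1G72730, listed as a further eIF4A locus, was dimmer, at 4.98 to 5.98 on the 12 arrays. Darkness over light was -0.13 ± 0.23 in captured RNA (adjusted p = 0.779 in limma) and 0.02 ± 0.23 in total RNA (adjusted p = 0.984), and no comparison passed for it without the replicate block. With the block its captured over total ratio passed after reillumination (-0.51, adjusted p = 0.00941 in limma) and in darkness (-0.49, adjusted p = 0.0133). Of all probe sets 35.7% and 32.1% were called there with the block, so such a call is common. The values of EIF4A-2 in total RNA of darkness and light were thus not seen in this relative, whose error was also larger. EIF4A1, the eEF1A loci and the delta and gamma loci of eEF1B lacked such a probe set and are not analysed here. Probe sequences were not used, so cross-hybridisation between such relatives was not tested.

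The wider machinery was viewed through 83 loci of cytosolic translation factors listed by locus number from general knowledge, of which 21 had a probe set of their own: the 2 genes above and 19 others. The annotation used here gives these 19 as numbers only, so their roles are those of the list. The list puts eIF1 together with eIF1A, and eIF5 together with eIF5B and eIF6. Single names within those groups are from general knowledge as well. In captured RNA 3 of the 19 fell in darkness compared with light and 0 rose, beside 17.2% of all probe sets called. Their median difference was -0.12, against -0.02 over all probe sets. AT4G27130 and AT1G54290, both listed as eIF1, the factor that guards start codon choice, fell by log2 0.69 ± 0.11 and 0.62 ± 0.11 (adjusted p = 0.00138 and 0.00193 in limma). AT1G77840, listed as eIF5, which triggers GTP hydrolysis at the start codon, fell by 0.38 ± 0.11 (adjusted p = 0.0417). The eIF1 calls held in all 18 alternatives. The eIF5 call was lost in 7 of 18, 6 of them with 1 array left out, where its adjusted p reached 0.226.

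AT4G27130 shared with AT5G19510 a low value in dark captured RNA at nearly level total mRNA. It was named for its call in that captured comparison, so the likeness in dark captured RNA is partly built in. In light and after reillumination its captured and total values were about equal, where AT5G19510 read lower in captured RNA. In captured RNA it read 10.17 and 10.23 after reillumination, 9.57 and 9.41 in darkness, and 10.15 and 10.20 in light. In total RNA it read 10.29 and 10.13, 10.18 and 10.02, and 10.10 and 10.17. Its dark captured arrays lay below all the others, and its total arrays overlapped between all conditions. Reillumination raised its captured mRNA by 0.71 ± 0.11 over darkness (adjusted p = 0.00405 in limma), and it was the 1 call among the 19 there, beside 7.83% of all probe sets. Reillumination over light was 0.02 ± 0.11 (adjusted p = 0.944). With the replicate as a block AT3G07300, listed as eIF2B, which recycles the initiation factor eIF2, was called too for reillumination over darkness (0.41, adjusted p = 0.0207 in limma, and 0.0504 without the block). The block called 15.1% of all probe sets there. The shift of captured over total RNA of AT4G27130 was -0.66 ± 0.16 for darkness over light (adjusted p = 0.0656 in limma) and 0.60 ± 0.16 for reillumination over darkness (adjusted p = 0.103), and both passed once the replicate entered as a block (adjusted p = 0.0224 and 0.0416). With the block 7.53% and 4.77% of all probe sets were called for the 2 shifts. Without the block 0 of the 19 were called for either shift, beside 1.09% and 0.994% of all probe sets. At an unadjusted p under 0.05 in limma there were 5 and 2 of the 19, beside 3888 and 3218 of 22746 probe sets.

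AT1G54290 took another course after reillumination. Its captured RNA read 9.00 and 9.17 after reillumination, 8.88 and 8.87 in darkness, and 9.47 and 9.53 in light. It remained below light (-0.42 ± 0.11, adjusted p = 0.0309 in limma), a call lost in 6 of 18 alternatives, among them each of the 4 with an array of these 2 groups left out (adjusted p up to 0.189). AT1G77840 was also below light after reillumination (-0.54 ± 0.11, adjusted p = 0.0129 in limma), and AT3G07300 above it (0.49 ± 0.12, adjusted p = 0.0212). The first call was lost in 3 of 18 alternatives (adjusted p up to 0.106) and the second in 5 (up to 0.118). These 3 were the calls among the 19 loci for reillumination over light, beside 8.88% of all probe sets.

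In total RNA 2 of the 19 fell in darkness, with 0 higher, beside 9.46% of all probe sets. AT1G77840 had a log2 difference of -0.53 ± 0.11 (adjusted p = 0.0124 in limma) and AT2G34970, listed as eIF2B, one of -0.44 ± 0.12 (adjusted p = 0.0409). The first call was lost in 4 of 18 alternatives, and the second in 11 (adjusted p up to 0.117 and 0.294). Under the replicate block 4 fell, and 15.8% of all probe sets were called. The added loci were AT1G76810, listed as eIF5B (-0.60, adjusted p = 0.0219), and AT1G36730, listed as eIF5 (-0.37, adjusted p = 0.0473). The median of the 19 was -0.17, against -0.02 over all probe sets. AT1G77840 was the 1 call for reillumination over light (-0.45 ± 0.11, adjusted p = 0.0348), lost in 6 of 18 alternatives, and for reillumination over darkness 0 of 19 were called, with 0 at an unadjusted p under 0.05 in limma.

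Ribosome capture separated the factors in both directions, beside 27.4%, 23.5% and 32.3% of all probe sets called in reillumination, darkness and light. Captured over total RNA was higher for 3 and lower for 7 of the 19 after reillumination, higher for 6 and lower for 7 in darkness, and higher for 5 and lower for 8 in light. With the replicate as a block these became 3 and 8, 6 and 9, and 6 and 9, beside 35.7%, 32.1% and 40.3% of all probe sets. The added calls were those of AT1G72730 and AT5G12110, given above, and of AT1G21160. This locus, listed with eIF5, eIF5B and eIF6, was lower in darkness (-0.44, adjusted p = 0.0176 in limma with the block) and in light (-0.45, adjusted p = 0.0115). AT1G54290 was enriched in captured RNA in each condition (0.86, 0.66 and 1.04), as was AT5G35680, listed as eIF1A, a partner of eIF1 on the small subunit (0.93, 1.10 and 0.90). AT3G02200, listed as a subunit of eIF3, the scaffold of initiation, was depleted in each (-0.61, -0.96 and -0.60). These 9 calls held in all 18 alternatives. AT4G27130 was depleted in darkness (-0.61 ± 0.11, adjusted p = 0.00217 in limma) and stood at -0.01 after reillumination and 0.04 in light.

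Another group of mRNAs of the translation machinery is that of cytosolic ribosomal proteins, of which 128 listed loci had a probe set of their own. That list was written after the files were seen and serves as a description. For darkness over light in captured RNA the ribosomal protein median was -0.40 (quartiles -0.56 and -0.24), and 13 of 128 were lower than AT5G19510, while 112 of 128 were lower than EIF4A-2. For reillumination over darkness the median was 0.18, with 6 of 128 above AT5G19510 and 122 above EIF4A-2. In these 2 comparisons AT5G19510 was in the outer part of the range of these mRNAs, and EIF4A-2 toward its opposite side. Both comparisons use the dark captured arrays that chose AT5G19510, so its outer place is partly built in by that choice. For captured over total RNA the ribosomal protein median was 0.14 after reillumination, with 15 of 128 below the -0.35 of AT5G19510. In darkness it was -0.04, with 2 of 128 below the -1.05 of AT5G19510, and in light 0.28, with 14 of 128 below its -0.34. For EIF4A-2, 19 of 128 were below its -0.28 after reillumination, 73 below its 0.01 in darkness and 14 below its -0.33 in light. On this ratio the 2 genes were placed alike in light and after reillumination, and apart in darkness. The ratio of AT5G19510 in darkness also uses the dark captured arrays that chose it, so its place there is partly built in.

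**Figure D4:**
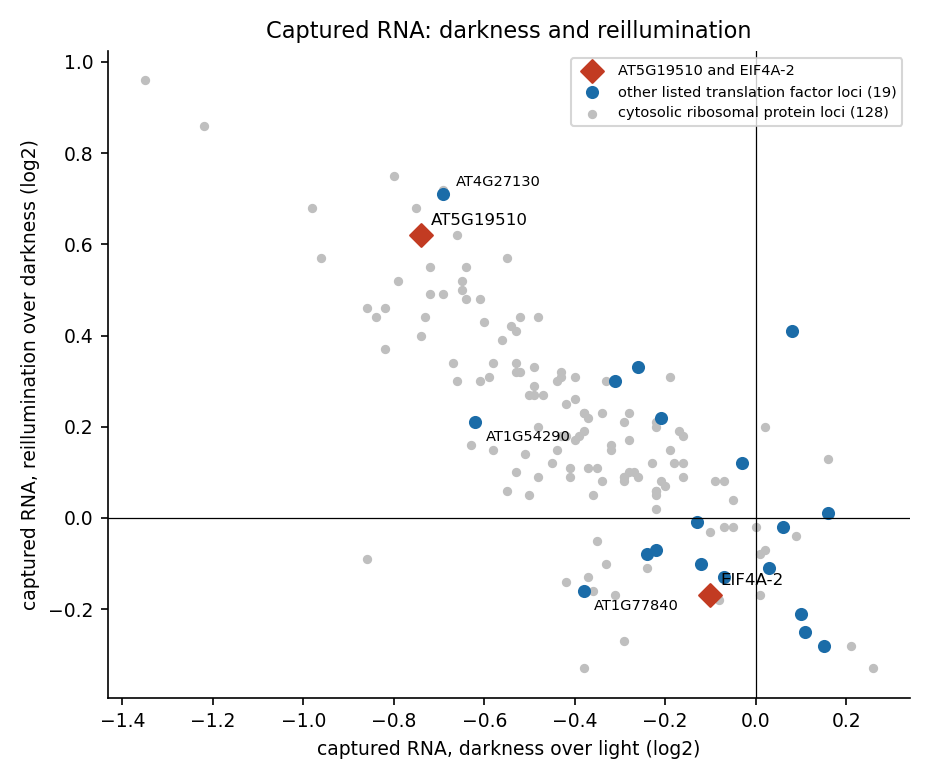
Captured RNA, darkness over light (log2, horizontal axis) against reillumination over darkness (log2, vertical axis), for AT5G19510 and EIF4A-2 (diamonds), the 19 other listed translation factor loci (blue) and 128 cytosolic ribosomal protein loci (grey). The axes share the dark arrays, so the downward slope is partly built in. AT5G19510 was chosen on its horizontal value, so its outer place is partly built in too. AT5G19510 (-0.74, 0.62) and AT4G27130 (-0.69, 0.71) lie close together, far from EIF4A-2 (-0.10, -0.17). AT4G27130 was named for its call on the horizontal comparison, so this closeness is partly built in.

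Genes with a like course were sought among 6110 genes whose 6 group means spanned at least log2 0.5, by Pearson's r over the 12 arrays, which share extracts and a scale. Nearest to AT5G19510 were AT5G16030 (r = 0.968), AT1G48950 (0.965), CHLM, for the magnesium protoporphyrin methyltransferase of chlorophyll synthesis (0.962), CaS, for a calcium-sensing protein of the thylakoid membrane (0.961), and AT3G14600 (0.958), which is on the ribosomal protein list. CaS read at group means of 10.33, 9.63 and 10.41 in captured and 10.77, 10.85 and 11.17 in total RNA of reillumination, darkness and light. Its lowest group was dark captured RNA, as for AT5G19510, a likeness built in by the choice on correlation. With r taken over the 6 group means, 0 of the 5 nearest genes were shared, so the membership of this short list depends on the measure.

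Nearest to EIF4A-2 were AT2G02780 (r = 0.974), ARA12, for a subtilisin-like protease (0.947), AT4G22580 (0.941), AT1G71070 (0.936) and AT3G13690 (0.935). ARA12 read 8.20, 8.46 and 8.75 in captured and 8.82, 8.64 and 9.34 in total RNA of reillumination, darkness and light. Light total RNA was the highest group and reilluminated captured RNA the lowest for all 5, as for EIF4A-2. The 5 were picked by their correlation with it on these arrays, so this likeness is built in. Over the 6 group means 1 of the 5 nearest, AT2G02780, was shared.

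**Figure D5:**
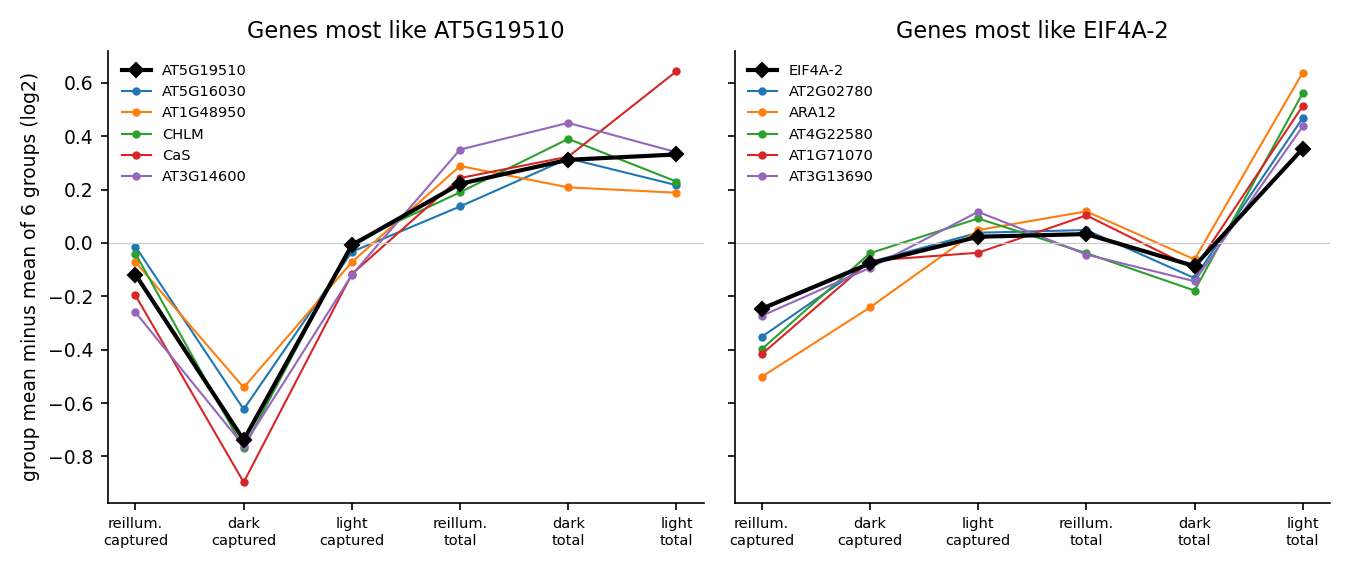
Group mean minus the mean of the 6 groups (log2, vertical axis) for AT5G19510 (left, black), EIF4A-2 (right, black) and the 5 genes nearest to each over 12 arrays. On the left all curves are lowest in dark captured RNA. On the right all are highest in light total and lowest in reilluminated captured RNA. The genes were picked by correlation on these arrays, so a like course is built in.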

How the data were processed

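The deposited table holds 1 log2 value per probe set and array, made by the authors with RMA in affy, per the submitters' processing notes (versions not given in the sources used here). Of 22810 probe sets, 64 controls were left out. Using limma 3.58.1 in R 4.3.3, 1 mean per group was estimated for each of the remaining 22746 on the 12 arrays (empirical Bayes, 6 residual and 5.48 prior degrees of freedom), with two-sided p, Benjamini-Hochberg adjustment over all of them, and differences called at an adjusted p under 0.05. The fit was tested on simulated data. Genes were named from probe sets tied to 1 gene (13513, of which 13436 matched a locus of assembly TAIR10.1). The number of arrays limits the precision. Errors are standard errors of the fit unless an SD is named.

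The members and lists were chosen with earlier results of these data known. Named genes were the 2 members, their measured relatives, up to 5 called loci of the factor list per comparison, and the 5 genes nearest to each member. Loci called under the replicate block alone were named after their values were seen, and the ribosomal protein list was added then too. Per the labels the replicates are independent experiments, and both pools of a replicate come from 1 extract. Same-numbered arrays of different groups deviated together (r = 0.29 to 0.51 over 15 pairs of groups), so the fit with the replicate as a block is given where it changes a call. Planned tests of EIF4A-2 are not printed, since the value that chose it is unknown. Figures were drawn with matplotlib 3.10.9 in Python 3.11.15.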

Additional observations from a re-analysis of the deposited data

How the results depend on the processing

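The 22 differences given for AT5G19510 and EIF4A-2 were recomputed in 18 settings (6 other fits or scalings, and 12 with 1 array left out), and 373 of 396 values stayed on their side of the threshold or, where no test is given, within 1 residual SD. Centring the arrays on their medians moved every captured over total ratio in light and in reillumination by 0.11. For AT5G19510 it gave -0.22 in light, -0.24 in reillumination (no longer called), and shifts of -0.78 and 0.77 into and out of darkness. A further quantile normalization gave -0.42 in light and -0.65 for the shift into darkness. With only the groups compared in the fit its ratio in reillumination was -0.35 and no longer called, and with 1 array left out it ranged from -0.40 to -0.29. For EIF4A-2 centring gave -0.22 in light and -0.17 in reillumination. With 1 array left out its total difference of darkness over light ranged from -0.58 to -0.29, reillumination over darkness from -0.03 to 0.26, the captured over total ratio in darkness from -0.14 to 0.15, and the shifts from 0.19 to 0.47 and from -0.43 to -0.15. Each of these extremes came from leaving out a dark total array, whose 2 readings differ most. Neither gene had another probe set of its own, so that alternative was not run.

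Counts over all probe sets varied more. In the fit with the replicate block 3593 probe sets were called for darkness over light in total RNA, compared with 2151 without it, 12 compared with 0 for reillumination over darkness, and 3111 compared with 1800 for reillumination over light. In captured RNA they were 5743 compared with 3904, 3430 compared with 1780 and 3409 compared with 2020 for the dark, reilluminated over dark, and reilluminated over light comparisons. The shifts had 1712 compared with 247 and 1086 compared with 226. With 1 array left out the counts were 983 to 2089, 0 to 5 and 837 to 1884 in total RNA, 2124 to 4044, 431 to 1865 and 988 to 2118 in captured RNA, in the order above, and 0 to 537 and 2 to 357 for the shifts. For captured over total RNA they were 3971 to 6337 after reillumination, 3367 to 5319 in darkness and 5200 to 7479 in light, compared with 6228, 5339 and 7338 on all arrays, so the shares of probe sets called that stand beside the results are mostly lower with fewer arrays. The block changed no call of AT5G19510. Of the 19 other factor loci, 2 were called for darkness over light in total RNA, 4 with the block, 1 with centring or a further quantile normalization, 0 with only the groups compared, and 0 to 3 with 1 array left out. The 1 call for reillumination over light in total RNA became 0 with centring or only the groups compared, and 0 to 1 with 1 array left out. In captured RNA the 1 call for reillumination over darkness became 2 with the block, centring, a further quantile normalization or dim probe sets left out, and 1 to 2 with 1 array left out. The 3 calls for reillumination over light became 0 with only the groups compared and 0 to 3 with 1 array left out. For captured over total RNA 6 to 13 were called in darkness and 8 to 13 in light with 1 array left out, and each shift had 1 call with the block.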
